A study of Homo sapiens with 24 samples.

Results

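Chromosome 19 carries the densest collection of zinc finger genes in the human genome, and the members described here are its genes with a symbol of ZNF and a number. They were taken as the rows of the deposited count table on chromosome 19 with such a symbol that held at least 10 counts in at least 3 of the 24 libraries. Of 243 candidate rows, 228 were kept, out of 39786 rows in the table. The members were thus chosen by their counts over all 24 libraries, a rule that uses no contrast, though the set itself was proposed with results of these data known. Of the 228, 192 held at least 10 counts in all 24 libraries, 36 in fewer and 15 in 12 or fewer. Just inside the threshold lay ZNF177 (5 libraries with 10 counts, mean count 6.17). Just outside lay ZNF99 and ZNF812 (2 libraries each, mean counts 2.88 and 3) and ZNF541 and ZNF709 (1 library each).

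The study sequenced messenger RNA of 2 human carcinoma cell lines, 5637 from the bladder and OVCAR8 from the ovary. Parental cells of each were set beside neratinib-resistant cells derived from them, called NR, and each of these 4 kinds of cell was cultured for 24 h with neratinib (600 nM for 5637, 1 µM for OVCAR8) or without it. Neratinib is an irreversible inhibitor of the kinases EGFR, HER2 and HER4. NR cells had spent 1 week off the drug before they were plated, so the untreated NR libraries describe resistant cells away from neratinib, and each NR population is 1 line per parent. This gives 8 groups of 3 dishes, and the p-values below measure the spread between those dishes only.

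Most zinc finger proteins of this kind bind DNA through a row of C2H2 fingers, each of which contacts a few bases. In many of them a KRAB domain at the amino-terminal end recruits the corepressor TRIM28 (KAP1), which gathers the histone methyltransferase SETDB1, HP1 proteins and deacetylases and silences the bound site, often a retrotransposon. The genes arose by repeated local duplication and therefore lie in clusters, several of which are themselves packed in heterochromatin marked by H3K9 trimethylation. In carcinomas, some of these genes are known for methylated, silent promoters.

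Along chromosome 19 (hg19), 74 members lay on the short arm and 154 on the long arm. Neighbours starting within 1 Mb of each other formed 15 clusters. The most crowded were the 57 genes from ZNF628 to ZNF446 at the end of the long arm (55987699 to 58992597), the 38 from ZNF175 to ZNF331 (52074551 to 54083523), and the 30 from ZNF101 to ZNF254 beside the centromere (19779605 to 24312654). A signature of the KRAB A box was found in the translated GENCODE proteins of 192 members and not in 33. For 3 members (ZNF229, ZNF542 and ZNF788) no protein was found under their gene ID, which does not show that they encode none. The median member encoded 12 fingers, with 13 among those with the KRAB signature and 9 among those without, and ZNF729 had the most, 39. Another gene with counts overlapped 156 of the 228 members. The notes do not say whether counting used strand, so reads of overlapping pairs such as ZNF580 and ZNF581, ZNF542 and ZNF582, or ZNF667 and its antisense gene may be split or shared, and their values are uncertain. Near-identical finger repeats within clusters add a similar uncertainty to multiply mapping reads.

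RefSeq's promoter table for GRCh38.p14 matched 197 of the 228 members by symbol. The 250 bases before the start site held a median of 16 CG dinucleotides in the members (range 1 to 35), against 11 over all promoters in the table, and 86.8% of matched members held 10 or more, against 52.2% of all promoters. CG is the pair at which human DNA is methylated, and methylation was not measured here. The sequences below belong to 6 members that the results turn on, chosen for their values. ZNF677 (chr19:53254824-53255073, minus strand) and ZNF470 (chr19:56567218-56567467, plus) were nearly undetected in NR 5637. ZNF382 (chr19:36605063-36605312, plus) was higher in NR 5637 and ZNF492 (chr19:22634074-22634323, plus) in NR OVCAR8. ZNF667 (chr19:56477346-56477595, minus) was close to 0 in all 5637 libraries, and ZNF528 (chr19:52397599-52397848, plus) rose with neratinib in 5637. Each sequence runs 5′ to 3′ on the gene's strand up to the base before the start site, with every CG in capitals. The table lists more than 1 window for 33 of the 197 matched members, and the first was used. Among the 6 this concerns ZNF677, whose second window is shifted by 50 bases and holds 23 CG.
ZNF677: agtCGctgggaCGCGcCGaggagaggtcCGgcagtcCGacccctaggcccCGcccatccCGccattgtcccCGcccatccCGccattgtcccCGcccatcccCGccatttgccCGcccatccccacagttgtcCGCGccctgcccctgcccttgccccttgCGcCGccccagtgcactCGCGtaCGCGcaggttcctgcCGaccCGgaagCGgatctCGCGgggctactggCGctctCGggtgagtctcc
ZNF470: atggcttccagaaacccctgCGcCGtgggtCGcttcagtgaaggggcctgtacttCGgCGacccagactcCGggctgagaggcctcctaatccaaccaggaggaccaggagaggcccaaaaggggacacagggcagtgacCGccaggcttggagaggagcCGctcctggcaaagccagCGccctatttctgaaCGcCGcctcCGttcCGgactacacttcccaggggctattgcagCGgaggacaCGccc
ZNF382: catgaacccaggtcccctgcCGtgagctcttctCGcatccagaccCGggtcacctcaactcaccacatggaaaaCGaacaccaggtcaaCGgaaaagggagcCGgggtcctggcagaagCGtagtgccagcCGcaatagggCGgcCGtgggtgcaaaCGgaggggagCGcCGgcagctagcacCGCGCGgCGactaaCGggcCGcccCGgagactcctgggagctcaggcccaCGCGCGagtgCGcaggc
ZNF492: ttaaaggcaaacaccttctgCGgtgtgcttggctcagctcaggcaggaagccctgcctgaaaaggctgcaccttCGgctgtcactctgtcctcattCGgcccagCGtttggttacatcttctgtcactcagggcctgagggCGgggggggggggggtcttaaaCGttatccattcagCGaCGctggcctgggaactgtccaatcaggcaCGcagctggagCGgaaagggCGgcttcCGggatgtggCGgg
ZNF667: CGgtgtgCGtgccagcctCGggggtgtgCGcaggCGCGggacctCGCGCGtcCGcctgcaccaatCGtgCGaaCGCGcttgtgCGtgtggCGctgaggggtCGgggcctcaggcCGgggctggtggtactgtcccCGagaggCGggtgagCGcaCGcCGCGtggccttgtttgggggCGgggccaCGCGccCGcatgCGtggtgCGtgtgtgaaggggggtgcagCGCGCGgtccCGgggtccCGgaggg
ZNF528: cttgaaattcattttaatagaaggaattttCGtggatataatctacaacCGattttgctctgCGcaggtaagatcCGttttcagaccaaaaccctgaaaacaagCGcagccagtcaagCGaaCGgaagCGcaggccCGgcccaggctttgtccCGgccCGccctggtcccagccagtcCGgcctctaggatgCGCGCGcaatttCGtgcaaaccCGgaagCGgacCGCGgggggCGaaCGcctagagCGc
They held 28 CG in ZNF677, 15 in ZNF470, 24 in ZNF382, 13 in ZNF492, 35 in ZNF667 and 23 in ZNF528. Every one of the 6 lies above the median of 11 over all promoters, as most matched members do. ZNF470 and ZNF492 lie below the members' own median of 16.

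Library totals ran from 23.8 to 48.5 M counts. The markers fitted the line labels in part. KRT5, a basal urothelial keratin, reached 536 to 4384 CPM (counts scaled to the library total) in 5637 and at most 0.779 CPM in OVCAR8, and PAX8, a Müllerian lineage factor, 69.2 to 157 CPM in OVCAR8 and at most 47.8 CPM in 5637. MSLN was also high in OVCAR8 (197 to 406 CPM), but other markers listed for ovarian carcinoma were higher in 5637: MUC16 (78.1 to 391 CPM against at most 0.22), EPCAM (165 to 301 against 14.2 to 28.0) and WT1 (1.67 to 32.6 against 0.88 to 4.32). UPK3A, a marker of differentiated urothelium, stayed at 0 to 0.62 CPM in 5637, and KRT13 averaged 128 CPM in untreated parental and 0.121 CPM in untreated NR 5637. Of 7 markers of leukocytes, endothelium and fibroblasts with a value, 3 reached 1 CPM in some 5637 library and 1 in OVCAR8. These were CD14 (group means of 0.266 to 0.887 CPM over both lines), COL1A2 (at most 13.0 CPM) and COL1A1 in 5637 (42.3 to 257 CPM) and COL1A1 in OVCAR8 (717 to 1262 CPM), while PTPRC, CD3E, CDH5 and DCN stayed at or below 0.259 CPM in all libraries. Their part in the results was not tested. Parental control replicate 2 of OVCAR8 stood apart: genes longer than 8 kb held 14.1% of its counts and at least 20.4% in every other OVCAR8 library, and the biological coefficient of variation of the OVCAR8 fit fell from 13.0% to 4.37% without it. The OVCAR8 counts over all tested members in each comparison below are therefore given with and without that library. Counts shared between comparisons, the KRAB split between lines and the counts of the gene lists are given with all libraries only.

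Summed over all 228 members, the level moved with drug and with resistance in 5637 and little in OVCAR8. Untreated parental 5637 libraries stood at 2398, 2458 and 2459 CPM and neratinib-treated ones at 2896, 2851 and 3007 CPM, a mean of 2439 ± 35.0 against 2918 ± 80.3 (SD, n = 3). NR 5637 libraries stood at 1970, 2034 and 1868 CPM without drug (1957 ± 83.6) and at 2117, 2347 and 2378 CPM with it (2281 ± 143). The 4 groups did not overlap, with NR below parental in both conditions and treated above untreated in both kinds of cell. Genes over 8 kb moved the same way with neratinib, from 21.1% to 21.3% of counts in untreated parental 5637 to 22.1% to 22.4% in treated, and the part of transcript length in the members' shift was not tested. Parental OVCAR8 gave 2826, 2232 and 2789 CPM untreated and 2742 to 2753 CPM on drug, and NR OVCAR8 2661 to 2725 CPM untreated and 2646 to 2689 CPM on drug. Apart from replicate 2, which was the lowest of the 12, the OVCAR8 groups lay within a narrow band.

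**Figure D1:**
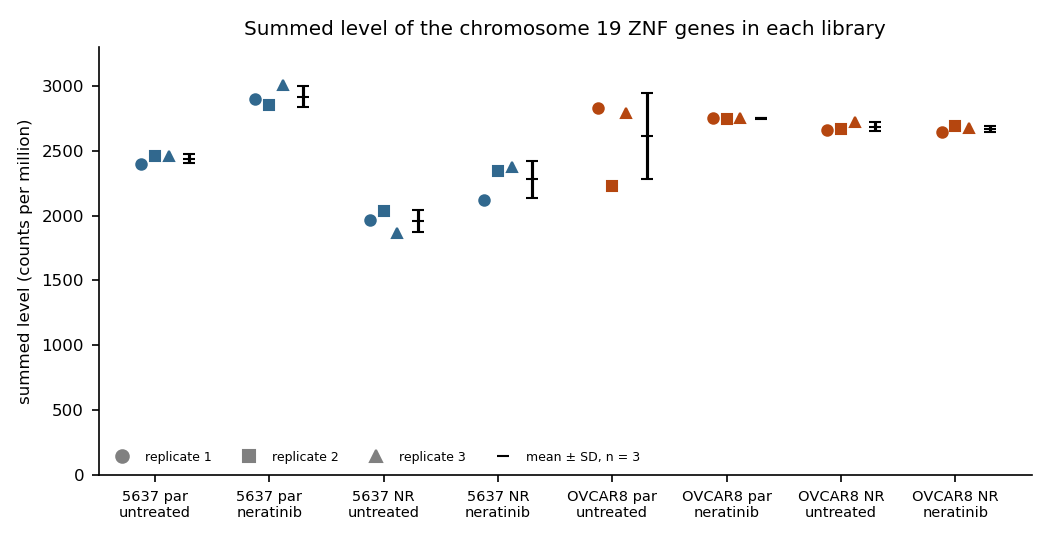
Summed CPM of the 228 members in each of the 24 libraries (blue 5637, orange OVCAR8; circle, square and triangle are replicates 1, 2 and 3; bars are mean ± SD of 3). In 5637 the groups separate, from 1868 to 2034 CPM in untreated NR cells to 2851 to 3007 CPM in treated parental cells, while in OVCAR8 only parental control replicate 2, at 2232 CPM, lies away from the rest.

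Compared per kilobase of counted length, ZNF146, a protein made of little but fingers, was the most abundant member in both lines, with a mean of 34.2 CPM per kb over the 12 libraries of 5637 and 37.9 over those of OVCAR8. ZNF358 (21.2 and 20.3), ZNF428 (11.2 and 15.5), ZNF581 (10.7 and 16.7) and ZNF580 (9.37 and 15.8) were among the leading 10 of both, and none of these carries the KRAB signature. In 5637, 9 of the leading 10 lacked it, and ZNF317 (10.8) was the KRAB gene. In OVCAR8 6 of 10 lacked it, 3 had it, ZNF431 (17.3), ZNF699 (16.1) and ZNF607 (11.6), and for ZNF542 (20.9) no protein was found to search. The places of ZNF542, ZNF431, ZNF699, ZNF607 and ZNF714 (18.3) belong to OVCAR8 alone: in 5637 they ranked from 51 to 214 of 228. The typical member was scarce, with a median of 6.54 to 6.66 CPM in untreated parental 5637.

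In parental 5637 cells, 24 h of neratinib went with a broad rise of these genes. Of 216 members tested, 89 rose and 17 fell (edgeR quasi-likelihood test, Benjamini-Hochberg adjusted p under 0.05), where 23.9% of all genes tested rose and 23.5% fell. The median member shifted by 0.26 on the log2 scale, against 0.02 for all other genes, 0.05 for the other chromosome 19 genes (239 rising and 227 falling of 1027) and 0.12 for ZNF genes on other chromosomes (67 and 24 of 208). With scaling by library size alone, 113 rose and 5 fell, while the median of all genes moved up by 0.11. The 17 falls became 9 without control replicate 3 or neratinib replicate 1, 10 without neratinib replicate 2 and 11 without control replicate 2.

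The rise was not spread evenly over the members. Among those with a KRAB signature 77 rose and 13 fell of 183, with a median of 0.27, and among those without it 11 rose and 4 fell of 30, with a median of 0.02. On the long arm 69 rose and 6 fell of 149 (median 0.33), and on the short arm 20 rose and 11 fell of 67 (median 0.09). The other genes of the chromosome had medians of 0.15 on the long arm and -0.02 on the short. In the cluster from ZNF565 to ZNF573, 14 of 23 rose and none fell, and in that from ZNF575 to ZNF296 12 of 24 rose and none fell (0 and 1 fell at an unadjusted p under 0.05). These splits are counts and medians, and the differences between the groups of members were not tested.

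ZNF114 and ZNF528, both KRAB genes of the long arm, had the largest rises among members that the naming rule picked. ZNF114 (ENSG00000178150.4, hg19 chr19:48675575-48790865) stood at 1.22, 0.986 and 1.153 CPM untreated and at 3.05, 3.29 and 3.39 CPM on neratinib, a log2 fold change of 1.43 (SE 0.12, adjusted p = 1.3e-07). ZNF528 (ENSG00000167555.9, hg19 chr19:52901102-52921665) stood at 4.26, 4.22 and 4.78 CPM untreated and at 10.4, 12.02 and 12.4 CPM on drug, a change of 1.29 (SE 0.12, adjusted p = 4.7e-07). In both, every treated library lay above every untreated one, by more than the spread among dishes. ZNF441 rose by 1.06 (from 4.63, 5.01 and 5.39 CPM to 10.3, 11.1 and 12.3 CPM, adjusted p = 7.2e-05) and ZNF419 by 0.91 (from 5.50, 6.56 and 5.86 CPM to 12.4, 11.04 and 12.9 CPM, adjusted p = 1.1e-05). ZNF274, which brings SETDB1 to the 3′ ends of other zinc finger genes, stood at 19.1, 17.3 and 18.6 CPM untreated and at 25.2, 26.5 and 27.4 CPM on drug. Its groups did not overlap, and the rise was 0.42 (SE 0.07, adjusted p = 0.00027). Among the falls, ZNF77, near the short arm's end, had the largest of members averaging 1 CPM or more. It went from 6.62, 6.34 and 5.81 CPM to 4.49, 4.69 and 4.88 CPM (log2 change -0.52, adjusted p = 0.0021), again without overlap. The scarcer ZNF85 (mean 0.254 CPM; -1.36, adjusted p = 0.046) and ZNF878 (mean 0.937 CPM; -0.77, adjusted p = 0.011) fell further on that scale. ZNF85, like ZNF100, also has a row on an alternate sequence in the table, which held 4 counts in 5637 against 120 in the chromosome row.

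**Figure D2:**
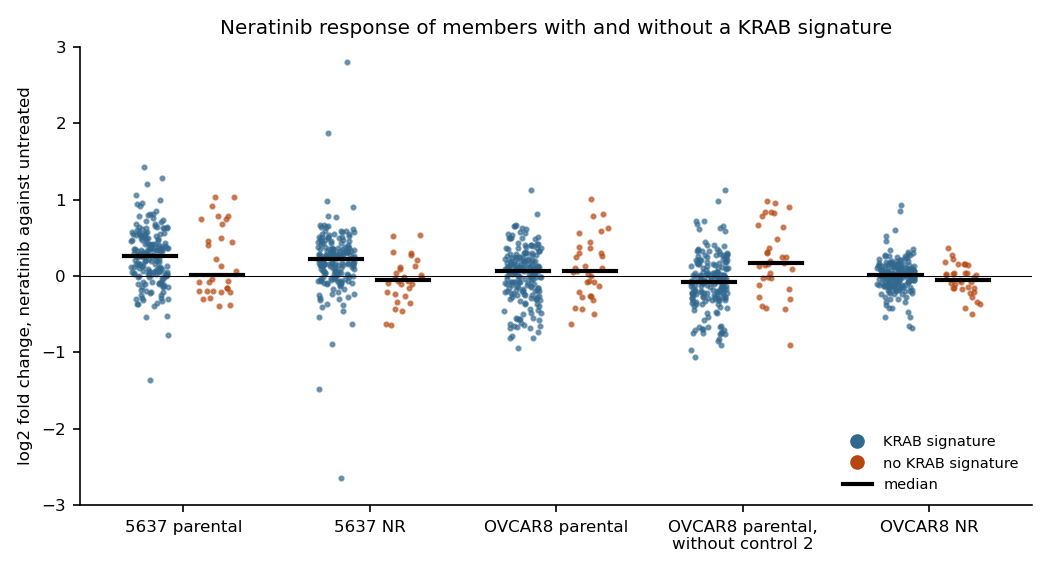
Log2 fold change of each tested member, neratinib against untreated, split by KRAB signature (blue with, orange without; black lines are medians), with parental OVCAR8 shown with and without control replicate 2. In 5637 the KRAB genes centre at 0.27 (parental) and 0.22 (NR) and the others at 0.02 and -0.05; 1 point, ZNF677 in NR cells with 5 counts in all, is drawn at the edge at 2.8.

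NR 5637 cells given neratinib again showed the rise in fewer members. Of the 216, 50 rose and 12 fell, where 18.4% of all genes rose and 21.1% fell, and the median was 0.17 against 0.00 for all other genes and -0.07 for the other chromosome 19 genes. KRAB genes counted 47 rises and 7 falls of 183 (median 0.22), and the members without the signature 2 rises and 5 falls of 30 (median -0.05). The count of rises depended on single dishes: it was 31 without NR control replicate 3, and 71 without NR neratinib replicate 1, whose summed level was the lowest of its group. With library size alone 88 rose and 6 fell, with a shift of all genes by 0.12. The treated and untreated libraries here share none with the parental comparison. Between the comparisons, 35 members rose in both, which is 39.3% of the parental rises and 70.0% of the NR rises. ZNF77, ZNF530 and ZNF551 fell in both. The like shares over all genes were not counted, so this overlap is not read as particular to the members.

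ZNF792 fell with neratinib in the resistant cells, and its response there differed from the parental one. This KRAB gene of the long arm (ENSG00000180884.9, hg19 chr19:35447258-35454953) stood at 4.11, 4.30 and 4.16 CPM in untreated NR 5637 and at 0.578, 0.983 and 0.637 CPM on drug, where parental cells had 3.53, 3.62 and 4.05 CPM untreated and 2.92, 3.56 and 3.15 CPM on drug. The treated NR libraries lay far below all other 5637 libraries, and the other 3 groups lay within 2.92 to 4.30 CPM. The fall in NR cells was -2.65 (SE 0.17, adjusted p = 1.1e-08), and the difference from the parental response was -2.33 (SE 0.23, adjusted p = 5.4e-06). In OVCAR8 it ranged from 2.72 to 5.11 CPM over the 12 libraries.

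Over all members, the drug response differed between NR and parental 5637 cells in 19 of 216: 5 had a higher response in NR cells and 14 a lower one, against 7.39% and 6.48% of all genes. Among the called lower responses, ZNF792 was followed by ZNF497 (-0.996, SE 0.28, adjusted p = 0.025) and ZNF114 (-0.76, SE 0.14, adjusted p = 0.0022). The ZNF497 call was lost without some single libraries. ZNF114 went from 17.6, 19.7 and 18.3 CPM to 30.1, 33.4 and 33.0 CPM in NR cells, a rise of 0.67 where the parental rise was 1.43. ZNF440 (0.58, SE 0.11, adjusted p = 0.0026) had the largest of the higher responses: it stood at 18.5, 18.5 and 16.4 CPM in untreated NR cells and at 22.7, 27.6 and 25.6 CPM on drug, without overlap, and at 40.1 to 47.7 CPM in the 6 parental libraries of both conditions. On the short arm 4 members of 67 had a higher response and none a lower one, and on the long arm 1 had a higher and 14 a lower one of 149. These counts ran from 2 to 8 higher and from 5 to 15 lower when single libraries were left out: higher became 2 without parental control 2 or parental neratinib 1, 3 without NR control 2 or 3, and 8 without NR neratinib 1, and lower became 5 to 9 without NR controls 1 or 2, parental controls 2 or 3, parental neratinib 1 or 2, or NR neratinib 3.

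Without drug, the resistant 5637 cells carried less of most of these transcripts than their parents. Of 216 members, 19 were higher and 111 lower in NR cells, where 28.4% of all genes were higher and 28% lower, and the median was -0.38. The rest of chromosome 19 moved in the same direction, with 152 higher and 488 lower of 1027 and a median of -0.32, whereas ZNF genes on other chromosomes had a median of -0.10 (36 and 62 of 208) and all other genes 0.01. Chromosome medians without the members ran from -0.45 on chromosome 15 to 0.71 on chromosome 21, with -0.36 on chromosome 12. How far the members' shift is part of that of their whole chromosome was not tested. As in any bulk sample, a lower count can come from less RNA per cell or from fewer cells carrying the transcript, which cannot be told apart here.

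The short arm was lower than the long arm. There 4 members were higher and 47 lower of 67, with a median of -0.67, against -0.38 for the other genes of that arm. On the long arm 15 were higher and 64 lower of 149 with a median of -0.27, against -0.24 for its other genes. KRAB members counted 18 higher and 97 lower of 183 (median -0.40), and those without the signature 1 higher and 13 lower of 30 (median -0.32). Within the cluster beside the centromere, 15 of 24 were lower and 4 were higher. The 4 were ZNF91 (0.56), ZNF675 (0.55), ZNF681 (1.66) and ZNF726 (0.56), which lie next to each other at the centromeric end, and they were picked out after their values were seen.

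**Figure D3:**
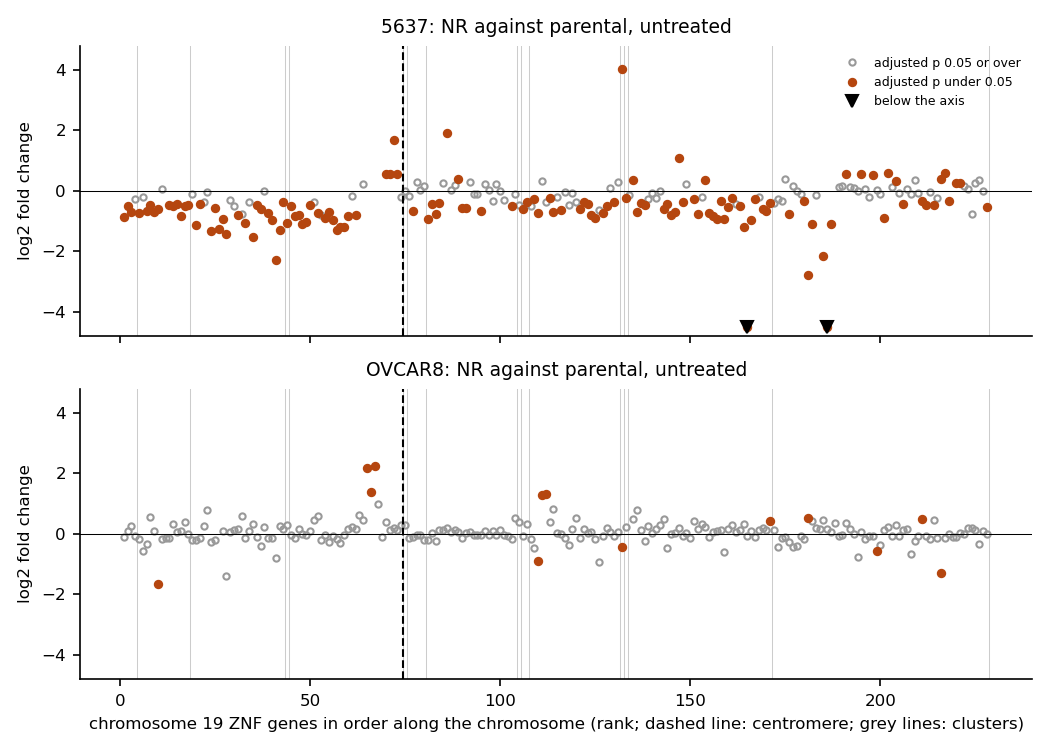
Log2 fold change of NR against parental cells without drug for each tested member, in order along chromosome 19 (upper panel 5637, lower panel OVCAR8; filled points have an adjusted p under 0.05, the dashed line is the centromere and grey lines divide the clusters). In 5637 most short-arm members lie below 0 apart from the 4 beside the centromere, ZNF114 stands at 4.03, and the triangles mark ZNF677 and ZNF470 below the axis.

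Against this general fall, ZNF114 was far higher in resistant cells: 1.22, 0.986 and 1.153 CPM in parental 5637 became 17.6, 19.7 and 18.3 CPM in NR (log2 fold change 4.03, SE 0.11, adjusted p = 7.8e-14), close to the 18.0 to 20.2 CPM of untreated parental OVCAR8. ZNF681 (ENSG00000196172.8, hg19 chr19:23921997-23941693) went from 4.88, 4.98 and 5.06 CPM to 17.4, 16.5 and 13.9 CPM (1.66, SE 0.12, adjusted p = 8.5e-09). In both, the lowest NR library lay well above the highest parental one. ZNF91, known for silencing SVA retrotransposons, stood at 19.8, 21.0 and 22.6 CPM in parental and 35.3, 32.9 and 26.6 CPM in NR cells (0.56, SE 0.11, adjusted p = 0.00049), also without overlap. ZNF382, a KRAB repressor named for promoter methylation in carcinomas, was scarce in the parental cells at 0.373, 0.468 and 0.0941 CPM and stood at 1.03, 1.29 and 1.199 CPM in NR (1.90, SE 0.36, adjusted p = 0.00029), with all NR libraries above all parental ones.

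ZNF677 and ZNF470 were the members that almost vanished from NR 5637. ZNF677 (ENSG00000197928.6, hg19 chr19:53731577-53758151), another gene known for promoter methylation in carcinomas, stood at 3.66, 3.62 and 3.6004 CPM in untreated parental cells and at 0 in all 3 untreated NR libraries. With 447 counts against a floor of 3 counts over the group, it was at least 137-fold lower. On neratinib it stood at 6.57, 6.33 and 6.91 CPM in parental cells, and only 5 counts were seen in 1 of the 3 NR libraries (0.116 CPM). ZNF470 (ENSG00000197016.7, hg19 chr19:57078880-57100279) went from 3.16, 3.33 and 3.69 CPM to 0.0530, 0.0287 and 0.122 CPM (log2 fold change -5.55, SE 0.32, adjusted p = 6.1e-10), and on drug from 4.92, 5.43 and 6.52 CPM to 0.0231, 0.0546 and 0 CPM. Neither was low in resistant OVCAR8 cells: ZNF677 stood at 12.9 to 15.8 CPM and ZNF470 at 8.38 to 9.56 CPM in its 6 NR libraries. Over the 12 libraries of 5637, each of these genes was the member most like the other (Pearson r of log2 CPM 0.997 over 196 members compared, a description of libraries that share their groups).

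Neighbours of ZNF470 were lower too. ZNF471 stood at 0.597, 0.789 and 0.635 CPM in parental and 0.0265, 0.201 and 0.220 CPM in NR cells (-2.16, SE 0.47, adjusted p = 0.001), and ZNF71 at 19.6, 20.5 and 19.3 CPM and 9.36, 9.55 and 9.25 CPM (-1.09, SE 0.10, adjusted p = 2.0e-07). Neither pair of groups overlapped. Among the more abundant members, ZNF440 of the short arm (ENSG00000171295.8, hg19 chr19:11925099-11946016) stood at 40.9, 45.1 and 47.7 CPM in parental and 18.5, 18.5 and 16.4 CPM in NR cells (-1.34, SE 0.08, adjusted p = 1.2e-09). ZNF136 followed with 6.69, 6.46 and 6.19 CPM against 2.39, 2.78 and 1.71 CPM (-1.52, SE 0.14, adjusted p = 1.2e-07).

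On neratinib the difference between NR and parental 5637 cells was wider still in count. It comprised 12 members higher and 140 lower of 216, where 28.8% of all genes were higher and 29.2% lower, with a median of -0.47 against 0.00 for all other genes and -0.40 for the other chromosome 19 genes. This comparison uses other dishes than the untreated one, and 11 members were higher and 102 lower in both. The like counts over all genes were not made. ZNF114 (3.27, adjusted p = 1.7e-13), the scarce ZNF382 (2.10, adjusted p = 8.9e-05), ZNF681 (1.87, adjusted p = 2.2e-09), ZNF726 (0.96) and ZNF675 (0.92) headed the higher ones. ZNF792, at 2.92 to 3.56 CPM in treated parental and 0.578 to 0.983 CPM in treated NR cells, joined the lower ones (-2.18, SE 0.18, adjusted p = 4.2e-08). Of the members without a KRAB signature, 23 of 30 were lower and none higher.

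**Figure D4:**
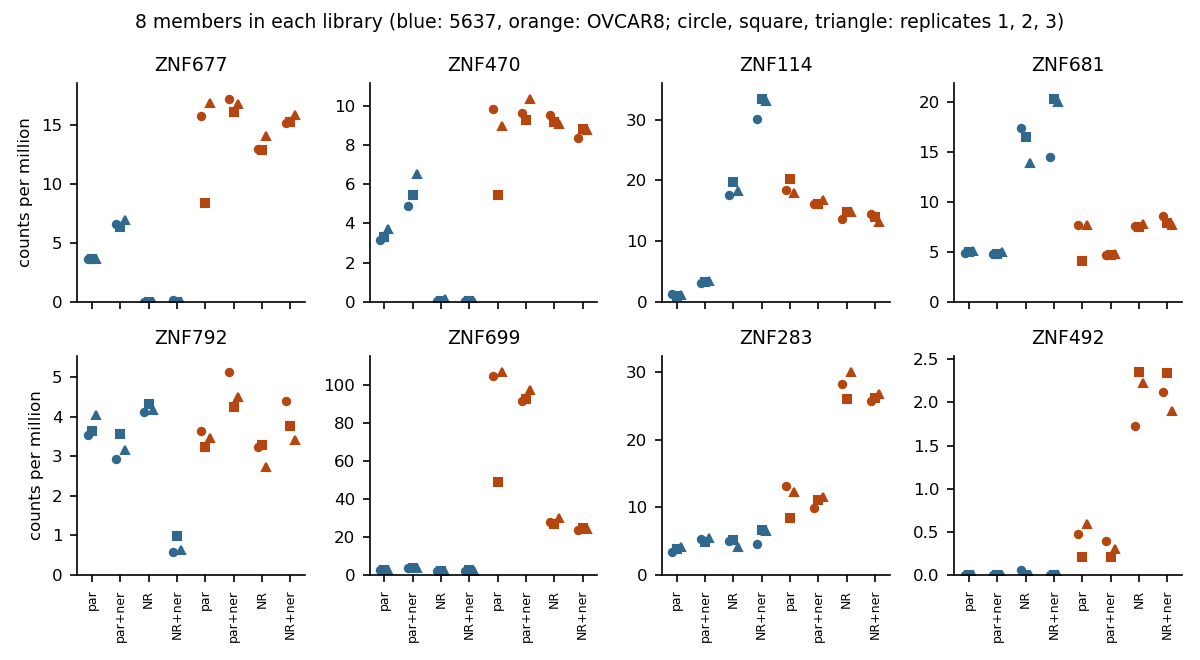
CPM of 8 members in every library, grouped as parental (par), parental on neratinib (par+ner), NR and NR on neratinib (NR+ner), blue for 5637 and orange for OVCAR8 with 1 symbol per replicate. ZNF677 and ZNF470 lie at or near 0 in the 6 NR 5637 libraries, ZNF114 and ZNF681 are high there, ZNF792 drops only in treated NR 5637, and in OVCAR8 NR cells ZNF699 is low while ZNF283 and ZNF492 are high.

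In parental OVCAR8 cells neratinib went with changes in both directions. Of 226 members tested, 26 rose and 27 fell, where 16.2% of all genes rose and 16.3% fell, and the median was 0.07 against 0.01 for all other genes. Without control replicate 2, 34 rose and 47 fell, against 24.3% and 24.9% of all genes, and the median turned to -0.05. The rises numbered 16 without neratinib replicate 1 or 3. Library size alone gave 35 rising and 18 falling. ZNF genes on other chromosomes counted 67 rises and 18 falls, with a median of 0.21, and the other chromosome 19 genes had a median of -0.12. In the cluster beside the centromere 9 of 30 fell and none rose, and 14 fell and none rose without control replicate 2. KRAB members counted 21 rises and 22 falls with all libraries and 21 rises and 39 falls without control replicate 2, when those without the signature counted 13 rises and 7 falls.

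ZNF542, which overlaps ZNF582 and may share reads with it, showed the largest fall. It stood at 114, 78.7 and 96.4 CPM in untreated parental OVCAR8 and at 39.8, 38.7 and 39.3 CPM on drug (-1.38, SE 0.09, adjusted p = 1.6e-06), with no overlap even with the low control library. ZNF738, in the cluster beside the centromere, stood at 22.2, 21.3 and 21.2 CPM untreated and at 14.1, 14.1 and 13.4 CPM on drug (-0.73, SE 0.09, adjusted p = 8.9e-05). ZNF675 of the same cluster fell from 17.8, 12.1 and 17.2 CPM to 10.99, 10.6 and 10.9 CPM (-0.63, SE 0.10, adjusted p = 0.00084). These 3 were below their controls in all treated libraries. Among the rises, ZNF446 went from 7.20, 6.32 and 7.05 CPM to 10.9, 11.1 and 11.8 CPM (0.62, SE 0.08, adjusted p = 0.00014), and ZNF497 from 1.58, 0.812 and 1.175 CPM to 2.99, 2.52 and 2.21 CPM (1.00, SE 0.21, adjusted p = 0.0033). Over the 214 members tested in both lines, the parental drug responses, which share no library, had 17 common rises (19.3% of those in 5637 and 70.8% of those in OVCAR8) and 6 common falls. These counts are with all libraries. The like shares over all genes were not counted, so the overlap is not read as particular to the members. ZNF274, ZNF404, ZNF114 and ZNF682 rose in 5637 and fell in OVCAR8.

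In NR OVCAR8 cells few members, as few genes in all, were called as responding to the drug. None rose and 2 fell by edgeR, ZNF404 and ZNF607, where 0.642% of all genes rose and 0.747% fell. At an unadjusted p under 0.05 there were 11 in each direction, and DESeq2 called 1 rise and 3 falls. ZNF404 stood at 7.74, 8.85 and 8.10 CPM untreated and at 5.08, 4.89 and 5.62 CPM on neratinib (-0.68, SE 0.11, adjusted p = 0.016), and ZNF607 changed by -0.35 (SE 0.06, adjusted p = 0.021). ZNF404 lost the call without any 1 of the 3 NR controls or NR neratinib replicates 1 or 2 (adjusted p 0.0549 to 0.099), and ZNF607 without any 1 of the 6. The left-out parental control is in neither group, but it widens the error of the whole fit: without it, 7 members rose and 16 fell, against 9.39% and 11.9% of all genes.

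Resistance without drug went with few called members in OVCAR8, as with few called genes in all. There 8 of 226 were higher and 5 lower in NR cells, where 4.94% of all genes were higher and 4.91% lower, and 17 were higher and 23 lower without control replicate 2, against 11.4% in each direction. Leaving out parental control 1 or 3 gave 17 and 13 higher ones, parental control 3 gave 8 lower, and NR control 1 or 2 gave 2 and 3 lower. The medians were 0.05 with all libraries and -0.02 without control replicate 2, so the middle of the set lay near 0.

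The higher ones included neighbours. ZNF283 and ZNF404, which lie near each other on the long arm, were both higher: ZNF283 (ENSG00000167637.12, hg19 chr19:44331444-44353307) stood at 13.2, 8.41 and 12.3 CPM in parental and at 28.3, 25.996 and 29.98 CPM in NR cells (1.28, SE 0.12, adjusted p = 2.6e-05), and ZNF404 at 3.41, 2.52 and 3.72 CPM and 7.74, 8.85 and 8.10 CPM (1.31, SE 0.12, adjusted p = 2.3e-05). In the cluster beside the centromere ZNF492 (ENSG00000229676.2, hg19 chr19:22817126-22850472) stood at 0.480, 0.203 and 0.587 CPM and at 1.73, 2.35 and 2.23 CPM (2.23, SE 0.28, adjusted p = 0.00035). Its neighbours ZNF729 (2.17, adjusted p = 0.001) and ZNF98 (1.38, adjusted p = 0.01) were higher as well, though ZNF98 lost the call without NR control replicate 3 (adjusted p = 0.0594). The NR libraries lay above the parental ones without overlap in ZNF283, ZNF404 and ZNF492. ZNF699 of the short arm (ENSG00000196110.3, hg19 chr19:9404951-9420514) was the largest loss: parental libraries held 105, 49.1 and 106 CPM and NR libraries 27.6, 26.7 and 29.9 CPM (-1.65, SE 0.19, adjusted p = 0.0002). ZNF418 stood at 4.06, 2.58 and 4.60 CPM and at 1.70, 1.22 and 1.67 CPM (-1.31, SE 0.20, adjusted p = 0.0013). Both stayed apart from even the low parental library.

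On neratinib 31 members were higher and 28 lower in NR than in parental OVCAR8, where 14.6% of all genes were higher and 16.4% lower. Without parental control replicate 2, which is in neither group, these counts were 53 and 50, against 26.8% and 28.7%, and leaving out any 1 of the 6 libraries compared gave 11 to 17 lower ones. By position the directions parted. In the cluster beside the centromere 13 of 30 were higher and none lower (median 0.51), and in that at the end of the long arm 5 were higher and 14 lower of 57 (median -0.20). Without that control the counts were 19 and 1, and 8 and 26. ZNF43 of the first cluster stood at 9.18, 9.30 and 8.99 CPM in treated parental and 14.3, 17.1 and 15.7 CPM in treated NR cells (0.81, SE 0.12, adjusted p = 0.00033), and ZNF257 at 5.54, 5.28 and 5.10 CPM and 9.94, 10.6 and 10.6 CPM (1.01, SE 0.15, adjusted p = 0.00042). ZNF542, with 39.8, 38.7 and 39.3 CPM against 109, 119 and 113 CPM, had the largest gain among abundant members (1.57, SE 0.09, adjusted p = 4.0e-07). At the long arm's end ZNF581, which overlaps ZNF580, stood at 47.1, 44.9 and 43.7 CPM and 22.7, 20.5 and 22.7 CPM (-1.005, SE 0.20, adjusted p = 0.0022). None of these groups overlapped. ZNF699 was again low, with 91.5, 92.6 and 97.4 CPM in treated parental and 23.4, 24.7 and 23.9 CPM in treated NR cells (-1.93, SE 0.20, adjusted p = 2.4e-05).

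The drug response of NR minus that of parental OVCAR8 was called higher in 6 members and lower in 3, against 4.62% and 4.21% of all genes. Without control replicate 2 these were 33 and 21, against 17% and 15.7%. The higher ones were 3 without any 1 of the 3 parental neratinib libraries, NR controls 1 or 2 or NR neratinib 2 or 3. The lower ones were 6 without parental control 1, and 1 without parental neratinib 1 or 3, NR controls 2 or 3 or NR neratinib 2 or 3. ZNF542 (1.04, SE 0.13, adjusted p = 0.00092), ZNF738 (0.81, SE 0.12, adjusted p = 0.0031) and ZNF101 (0.67, SE 0.14, adjusted p = 0.012) led the higher ones, each falling on drug in parental cells, and ZNF835 (-0.94, SE 0.21, adjusted p = 0.016) the lower ones.

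Untreated parental cells of the lines differed in most members, as they did in most genes tested, and more members were lower than higher in OVCAR8. Of 228, 67 were higher and 105 lower in OVCAR8 than in 5637, where 36.8% of all genes were higher and 35.1% lower, and the median was -0.25, against 0.01 for all other genes and 0.17 for the other chromosome 19 genes. Without OVCAR8 parental control replicate 2, 65 were higher and 99 lower, against 36.5% and 36.3% of all genes. KRAB members counted 53 higher and 97 lower of 192 (median -0.39), those without the signature 13 and 8 of 33 (median 0.13). This split is with all libraries. In untreated parental OVCAR8 replicates 1, 2 and 3, KRAB members summed to 1826, 1285 and 1827 CPM. Those without the signature summed to 874, 861 and 853 CPM. The part of replicate 2 in the split was not tested. The count filter let in some members through 1 line alone. In OVCAR8, 2 members stayed under 10 counts in every library and reached them in 5637: ZNF69 (4.53 to 16.003 CPM) and ZNF175 (8.61 to 12.9 CPM). The reverse held for 11 members, of which 6 belong to the cluster beside the centromere: ZNF208, ZNF729, ZNF98, ZNF492, ZNF728 and ZNF730. ZNF135 (6.41 to 13.5 CPM), ZNF835 (2.09 to 4.27 CPM) and ZNF730 (1.36 to 3.17 CPM) had no count in any 5637 library. Against a floor of 3 counts over the group, untreated parental OVCAR8 was at least 371-fold, 91.3-fold and 101-fold higher. ZNF667, with its 35 promoter CG, stood at 11.3 to 15.7 CPM in OVCAR8 and at no more than 0.216 CPM in 5637.

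The effects themselves differed between the lines. Dose also differed (600 nM for 5637, 1 µM for OVCAR8) and cannot be told apart from line. Among genes listed as a drug check, DUSP6 went from 69.5 to 2.10 CPM and EGR1 from 227 to 0.54 CPM in parental 5637. In parental OVCAR8 they went from 3.2 to 2.76 CPM and from 7.33 to 9.51 CPM. ETV4 fell from 27.5 to 2.83 CPM in 5637 and from 53.2 to 19.5 CPM in OVCAR8. In the same order SPRY4 fell from 9.86 to 0.28 CPM and from 13.4 to 9.08 CPM. Their part here was not tested. The neratinib effect in parental OVCAR8 was below that in parental 5637 in 28 members and above it in 2, where 4.83% of all genes lay below and 5.46% above, with a median of -0.19. Without OVCAR8 control replicate 2, 58 lay below and 3 above, against 8.9% and 9.69%, and 17 or 18 lay below without 5637 parental control 1 or 2. ZNF114 (-1.75, SE 0.15, adjusted p = 3.3e-08), ZNF542 (-1.63, SE 0.30, adjusted p = 0.00074), ZNF404 (-1.52, SE 0.26, adjusted p = 0.00038) and ZNF528 (-1.09, SE 0.19, adjusted p = 0.00058) were among the lower ones. ZNF528 stood at 22.5, 13.0 and 22.9 CPM in untreated and 23.1, 23.9 and 24.8 CPM in treated parental OVCAR8, above all its 5637 values, of which the highest was 12.4 CPM. The NR effect without drug was above that in 5637 for 85 members and below it for 13, where 14.8% of all genes lay above and 18.1% below, with a median of 0.41 against -0.03 for all other genes and 0.19 for the other chromosome 19 genes. Without that control the counts were 87 and 18, against 18.6% and 20.5%, and 8 lay below without 5637 parental control 3 or NR control 2. Of the 214 members tested in both lines, 19 were higher and 110 lower in untreated NR 5637, and 5 higher and 5 lower in untreated NR OVCAR8. ZNF428 and ZNF699 were lower in NR cells of both lines. ZNF114 and ZNF418 were higher in NR 5637 and lower in NR OVCAR8, and ZNF586, ZNF331 and ZNF542 were lower in NR 5637 and higher in NR OVCAR8. Of these OVCAR8 calls, ZNF114 was lost without NR control replicate 1 (adjusted p = 0.061), ZNF331 without NR control replicate 2 or 3 (0.0653 to 0.0805) and ZNF428 without any 1 of the NR controls.

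**Figure D5:**
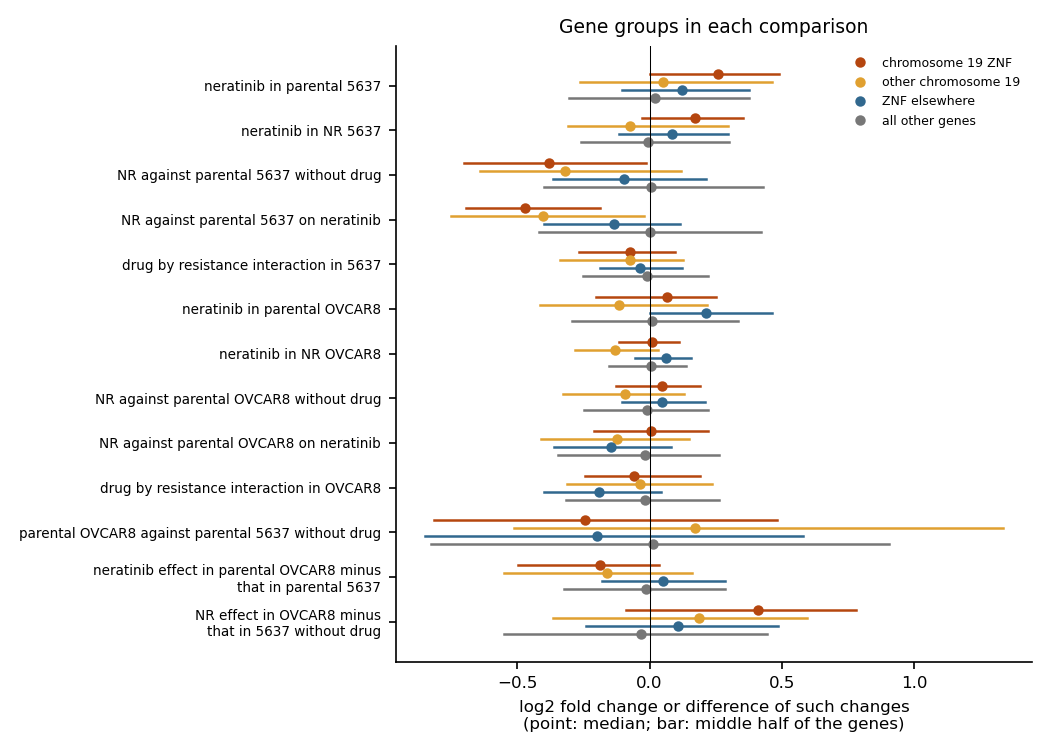
Median log2 fold change (points) and quartiles (bars) of the chromosome 19 ZNF genes, the other chromosome 19 genes, ZNF genes on other chromosomes and all other genes in each comparison, with all libraries. The members lie above the other groups for neratinib in parental 5637 (0.26) and NR 5637 (0.17), and lie lowest, near the rest of their chromosome, for NR against parental 5637 (-0.38 without drug and -0.47 on it).

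Members with a known function were followed as lists. Of 9 genes known for binding transposable elements, 8 were tested in 5637, and ZNF534 had too few counts. Neratinib in parental 5637 raised ZNF91 (0.30) and ZNF808 (0.38) and lowered ZNF93 (-0.21), which silences L1 elements, and ZNF649 (-0.30), where 23.9% of all genes rose and 23.5% fell. ZNF649 missed the threshold when scaled by library size alone (adjusted p = 0.0577). In untreated NR 5637, 2 were higher (ZNF91 at 0.56 and ZNF611 at 0.35) and 4 lower, with ZNF93 the lowest at -1.05 (SE 0.08, adjusted p = 2.7e-08), against 28.4% of all genes higher and 28% lower. By DESeq2 2 of these 8 genes were higher and 3 lower. Their level was lower in parental OVCAR8 than in 5637 in 6 of 8 and higher in none, against 35.1% of all genes lower and 36.8% higher. Of 10 genes known for promoter methylation in carcinomas, 7 were higher and none lower in parental OVCAR8 than in 5637 (ZNF382 by 4.09, ZNF582 by 3.91 and ZNF471 by 3.48), the shares of all genes being those just given. In untreated NR against parental 5637, 1 of them was higher (ZNF382) and 4 lower: ZNF677, ZNF471, ZNF582 and ZNF331. The shares of all genes were again 28.4% and 28%. By DESeq2 1 of the 10 was higher and 3 were lower. ZNF582 was scarce, at means of 0.469 CPM in parental and 0.224 CPM in NR cells (adjusted p = 0.037 by edgeR). ZNF582 overlaps ZNF542, and its reads may be shared with it. DNA methylation was not measured.

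Many of the partners that KRAB proteins work through fell in 5637. Of 24 genes of the corepressor and heterochromatin machinery, 20 were tested in 5637. ATRX, SUV39H1, EHMT2 and DAXX also have rows on alternate sequences, which held 1047 of the SUV39H1 counts in 5637 against 4 on the chromosome and were left out, and these 4 were not tested there. Neratinib in parental 5637 went with 2 rises and 13 falls (median -0.34), where 23.9% of all genes rose and 23.5% fell. TRIM28, the central corepressor, went from 671 ± 11.2 CPM to 495 ± 27.1 CPM (SD, n = 3; log2 change -0.55, SE 0.08, adjusted p = 7.6e-05 by edgeR). UHRF1, which guides maintenance methylation, went from 166 ± 3.94 to 98.0 ± 6.43 CPM (-0.87), and DNMT1, the maintenance methyltransferase, from 363 ± 7.77 to 275 ± 11.8 CPM (-0.51). CBX5, which encodes HP1 alpha, rose by 0.40. In untreated NR 5637, 1 was higher and 14 lower (median -0.41), where 28.4% of all genes were higher and 28% lower, with TRIM28 at 434 ± 36.6 CPM, and ATF7IP, the partner of SETDB1, at 57.2 ± 3.96 against 120 ± 2.94 CPM (-1.08, adjusted p = 5.9e-10). In OVCAR8 the resistant cells had more of some. Of 23 genes tested there, neratinib went with 2 rises and 11 falls in parental cells (median -0.19), against 16.2% and 16.3% of all genes, and with none in NR cells by edgeR (median -0.01), against 0.642% and 0.747%. At an unadjusted p under 0.05 there was 1 in each direction there, and DESeq2 called 1 fall. Without parental control replicate 2, 9.39% of all genes rose and 11.9% fell in NR cells. The list counts in OVCAR8 are with all libraries. NR cells had 1 higher and none lower without drug (median 0.02), against 4.94% and 4.91%, and 8 higher and none lower on it (median 0.20), against 14.6% and 16.4%. In each, 1 was lower at an unadjusted p under 0.05 and none by DESeq2. In OVCAR8 TRIM28 stood at 557 ± 80.9 CPM in untreated and 446 ± 15.6 CPM in treated parental cells, and at 565 ± 20.8 and 498 ± 29.3 CPM in NR cells.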

How the data were processed

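Messenger RNA libraries were made with a strand-marking kit, per the labels' protocols. The submitters' processing notes name hg19, the aligner STAR (2.5.3a), the counter featureCounts (1.15.2), DESeq2 (1.18.1) and FastQC, but give no order of steps and no strand setting for counting. The deposited table holds the authors' whole-number counts per gene (39786 rows, 24 libraries, 23.8 to 48.5 M counts), with hg19 coordinates and symbols.

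Each line was fitted alone (12 libraries, 4 groups, 8 residual degrees of freedom), and contrasts between lines with all 24. Genes were filtered by filterByExpr, scaled by TMM and tested with the quasi-likelihood test of edgeR 4.0.16 (R 4.3.3). Benjamini-Hochberg adjustment ran over every gene in a fit, with calls made at 0.05, and every fold change is on the log2 scale. Of the 228 members, 216 were tested in 5637, 226 in OVCAR8 and 228 between lines. CPM values are counts scaled to the library total, and their ratios leave out the TMM factors that the fitted changes hold. The interaction is the drug effect in NR cells minus that in parental cells. The fits were also run on simulated counts with few changed genes, unlike these data, and no result here rests on that run.

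The members and lists were chosen with earlier results of these data known. Named members were, in each comparison, up to 10 of the largest rises and 10 of the largest falls whose mean reached 1 CPM and, outside interactions and differences of effects, no overlap of groups. List members, the most abundant 10 (ranked within each line, a choice made after seeing the data), members of 1 line alone and members named in the text as picked after their values were seen (also ZNF274, ZNF71 and ZNF878) were added. The KRAB split was added after seeing the data. It asks for at least 10 of the conserved A-box positions in GENCODE v29 proteins. Arms were divided at 26 Mb. As alternatives, DESeq2 1.42.0 replaced the test, its size factors or the bare library size replaced TMM, the gene filter was dropped or set to 1 CPM in 3 libraries, the replicate number was made a block, and libraries were dropped singly. Depth limits members of a few counts most.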

Additional observations from a re-analysis of the deposited data

Results flagged for a closer look

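The members below differed in their response between the kinds of cell or between the lines by a test of the difference itself (edgeR, adjusted over all genes). Values are differences of log2 fold changes.

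In 5637 the neratinib response of NR cells exceeded the parental one in ZNF440 (0.58), ZNF43 (0.45) and ZNF738 (0.44) and lay below it in ZNF792 (-2.33), ZNF497 (-0.996) and ZNF114 (-0.76). ZNF440, ZNF792 and ZNF114 kept the call in every setting tried. ZNF43 and ZNF497 lost it (adjusted p 0.0504 to 0.0758 and 0.0533 to 0.0804) without single libraries, which for both included parental controls 2 and 3, parental neratinib 1 and NR neratinib 2 and 3. ZNF43 also lost it without parental neratinib 2 or NR controls 2 or 3, and ZNF497 without NR control 1. ZNF738 lost it without parental control 2, parental neratinib 1 or NR controls 2 or 3 (adjusted p 0.0519 to 0.0701, which includes the fit with no filter).

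In OVCAR8 the difference was 1.04 in ZNF542, 0.81 in ZNF738 and 0.67 in ZNF101, and -0.94 in ZNF835, -0.66 in ZNF333 and -0.46 in ZNF446. ZNF333 lost the call without parental neratinib 1 or 3, NR controls 2 or 3 or NR neratinib 2 or 3, and ZNF446 without any 1 of the 9 libraries outside the parental controls. Over all settings that lost the call, the adjusted p reached 0.078 and 0.166.

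The neratinib effect in parental OVCAR8 minus that in parental 5637 was 0.78 in ZNF546 and 0.64 in ZNF792, and -1.75 in ZNF114, -1.63 in ZNF542 and -1.52 in ZNF404. The calls of ZNF546 and ZNF792 were lost in 11 and 7 settings. For ZNF546 these included leaving out 5637 controls 1 or 2, 5637 neratinib 1 or 2, OVCAR8 controls 1 or 2 or any OVCAR8 neratinib library. For ZNF792 they included 5637 control 3, 5637 neratinib 1 or 3, OVCAR8 control 1 and OVCAR8 neratinib 1 or 3.

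The NR effect in OVCAR8 minus that in 5637 was 5.69 in ZNF470 and 3.37 in ZNF667, and -4.49 in ZNF114, -1.73 in ZNF418 and -1.71 in ZNF382. For ZNF677 the fitted difference was 10.15, a value that depends on the prior count because untreated NR 5637 held no count of it. ZNF667 had at most 8 counts in any 5637 library.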

How the results depend on the processing

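No named member result changed direction. Differences near 0 between the median of members and that of all other genes did change sign: in OVCAR8, those for neratinib in parental cells, NR against parental cells without drug and the interaction did so without parental control replicate 2 (-0.056, -0.019 and 0.052), that for neratinib in NR cells without NR control replicate 1 or 2, and that for NR against parental cells on neratinib with no filter. Of 204 named member results, 159 kept their call in every setting, and 244 of 2806 alternative values missed the threshold. Of 546 alternative counts and medians, 447 stayed close and 99 moved. With library size only, 5 members fell with neratinib in parental 5637, 88 rose and 6 fell in NR 5637, 1 rose in NR OVCAR8, 5 lay lower in the OVCAR8 interaction, 1 lay higher in the difference of drug effects and 8 lower in that of NR effects. With no filter, 3 lay higher in the 5637 interaction, 1 fell in NR OVCAR8, and the drug effects differed upward in 1 and downward in 18. DESeq2 gave 1 rise in NR OVCAR8, 14 higher in untreated NR OVCAR8, 13 higher and 7 lower in the OVCAR8 interaction and 4 higher in the difference of drug effects. A filter of 1 CPM gave 1 rise in NR OVCAR8.

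Same-numbered dishes did not deviate together (r -0.51 to 0.35 in 5637 and -0.27 to 0.24 in OVCAR8), so the numbers do not pair them. With a replicate block, 1 member fell with neratinib in NR OVCAR8.

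Leaving out single libraries gave these ranges, where a median is that of members minus that of all other genes. Neratinib in parental 5637 had 9 to 18 falls, and in NR 5637 31 to 71 rises and a median over other genes of 0.14 to 0.24. The 5637 interaction had 2 to 8 higher, 5 to 15 lower and -0.105 to -0.013. Neratinib in parental OVCAR8 had 16 to 34 rises, 18 to 47 falls and -0.056 to 0.096, and in NR OVCAR8 0 to 7 rises and 0 to 16 falls. NR against parental OVCAR8 had 6 to 17 higher, 2 to 23 lower and -0.019 to 0.096 without drug, and 23 to 53 higher and 11 to 50 lower on it. The OVCAR8 interaction had 3 to 33 higher, 1 to 21 lower and -0.083 to 0.052. Between the untreated parental lines the median over other genes was -0.33 to -0.21. Drug effects differed with 0 to 5 higher, 17 to 58 lower and -0.27 to -0.14, and NR effects with 8 to 18 lower and 0.37 to 0.46. The upper ends in OVCAR8 mostly came without parental control replicate 2, whose absence narrows the error of the fit. For the other changes the cause was not tested.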
